A study of Mus musculus with 5 samples.

Results

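Macrophages of the mouse colon mesenchyme that carried complement C1q transcripts but no transcript of Mrc1, F13a1 or Pf4 are described here. They were chosen by their own counts: a cell barcode with at least 300 genes and at most 10% mitochondrial transcripts entered if it had a transcript of at least 2 of C1qa, C1qb, C1qc and Csf1r and none of the 3 absent genes. This gave 66 marker-lacking cells among 428 cells that passed the C1q gate and among 6005 retained barcodes of 7935. The other 362 gated cells carried at least 1 of the 3 genes and are called marker-carrying macrophages. All cells came from untreated C57/BL6 mice aged 10 weeks, and no genotype, treatment or other condition was contrasted. The epithelium had been stripped chemically and the rest of the tissue digested enzymatically before Drop-seq, a droplet method that tags each captured RNA molecule with a unique molecular identifier (UMI). Biological replicate 1 was run as collections 1A and 1B and biological replicate 2 as collections 2A, 2B and 2C. The number of mice behind each replicate is not stated, so the SDs of replicates below describe the spread between 2 preparations. Exact intervals cover counting error only, and SEs come from the test statistic of the edgeR fit described below.

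Gut macrophages are continually renewed from blood monocytes, and longer-lived macrophages lie deeper in the wall around vessels and nerves. The mannose receptor Mrc1, the transglutaminase subunit F13a1 and the chemokine Pf4 are commonly found in the perivascular, longer-lived type. Macrophages beneath the epithelium are known for abundant MHC class II, which presents peptides to CD4+ T cells, and for the fractalkine receptor Cx3cr1. C1q is a secreted complement component that tissue macrophages make in quantity, and Csf1r is the receptor for the growth factor on which they depend.

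The marker-lacking cells were 15.4% of gated macrophages (66 of 428, exact 95% binomial interval 12.1 to 19.2%), with a mean of 15.4 ± 0.303% (SD, n = 2 biological replicates), and 1.10 ± 0.0743% of all retained barcodes. There were 18 in collection 1A, 17 in 1B, 12 in 2A, 9 in 2B and 10 in 2C, so every collection held some and none held most of them. The collections had 1461337 to 2953455 UMIs in retained barcodes. The marker-lacking cells had 519 to 22523 UMIs each with a median of 1906.5, against a median of 2041.5 in marker-carrying cells. No marker-lacking cell shared its barcode with a cell of another collection, while 12 retained barcodes did. Scrublet marked 23 retained barcodes as doublets (0.383%), 1 of them marker-lacking, where the expected fraction given to it was 0.05. None was removed, and undetected doublets may remain.

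The rule's edges were close to the cells on either side of it. Of the marker-lacking cells, 26 had 2 of the 4 gate genes, 25 had 3 and 15 had all 4. A further 330 retained barcodes had exactly 1 gate gene and none of the 3 absent genes. On the other side, 57 marker-carrying cells carried exactly 1 UMI of the 3 genes, 49 carried 2 and 256 carried more. Mrc1 was found in 300 marker-carrying cells, Pf4 in 263 and F13a1 in 131. The 4 gate genes had a median of 6 UMIs per marker-lacking cell, 9 per marker-carrying cell and 7 in marker-carrying cells with a single UMI of the 3.

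Not all 66 barcodes were led by macrophage transcripts. In 14 of them (21.2%) the markers of 1 other cell type, among 11 marker lists, had more UMIs than the 4 gate genes, compared with 28 of 362 marker-carrying cells (7.73%). Fibroblast genes led in 6 of the 14, blood endothelial genes in 4, T and innate lymphoid genes in 3 and plasma cell genes in 1. Among marker-carrying cells the leading list was fibroblast in 19, T and innate lymphoid in 7 and plasma cell in 2. Il7r gave 99 of the 105 UMIs of the T and innate lymphoid list in marker-lacking cells and 519 of 528 in marker-carrying cells. In marker-lacking cells the T cell receptor complex genes Cd3e, Cd3d and Cd3g gave 0, while the receptor genes Trbc2 and Trbc1 gave 3 and 2. All UMIs of Trbc2 and Trbc1 lay in the 14 barcodes, where Il7r gave 11 of the 16 UMIs of the list. A list of macrophage core genes took a median of 0.140% of a barcode's UMIs in the 14, with a range of 0.0454 to 2.92%. The median was 2.44% in the other 52 marker-lacking cells, 2.71% in the 334 marker-carrying cells led by their gate genes and 1.57% in the 28 that were not.

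Most of the deepest barcodes were of this kind. The 6 deepest held 39.0% of all UMIs of the 66. The first, in collection 1A with 22523 UMIs, had 156 blood endothelial UMIs against 2 of the gate genes. The second, in 2A with 14814 UMIs, had 137 against 3. A barcode in 1A with 12153 UMIs had 2510 plasma cell UMIs and 3 of the gate genes. In contrast, a cell in 2A with 13594 UMIs had 91 gate-gene UMIs and 698 macrophage core UMIs. The last, in 2C with 10550 UMIs, had 2 gate-gene UMIs beside 308 core UMIs, 963 MHC class II UMIs and the dendritic genes Flt3 and Ccr7. It counted as led by fibroblast genes on 9 UMIs. A further count took retained cells with 3 or more markers of another type and more UMIs of those markers than of the core list. They passed the C1q gate in 11 of 3567 cases for fibroblasts (0.308%, exact 95% interval 0.154 to 0.551%). For blood endothelium it was 5 of 563 (0.888%, 0.289 to 2.06%) and for plasma cells 3 of 51 (5.88%, 1.23 to 16.2%). Barcodes richer in core UMIs were left out of this count, which can lower these rates. By this measure 52 of the 66 barcodes were not led by another listed cell type. The 11 lists held no dendritic genes, so the measure does not set macrophages apart from dendritic cells. The calls and the shares of 5 gene lists below are given with and without the other 14.

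**Figure D1:**
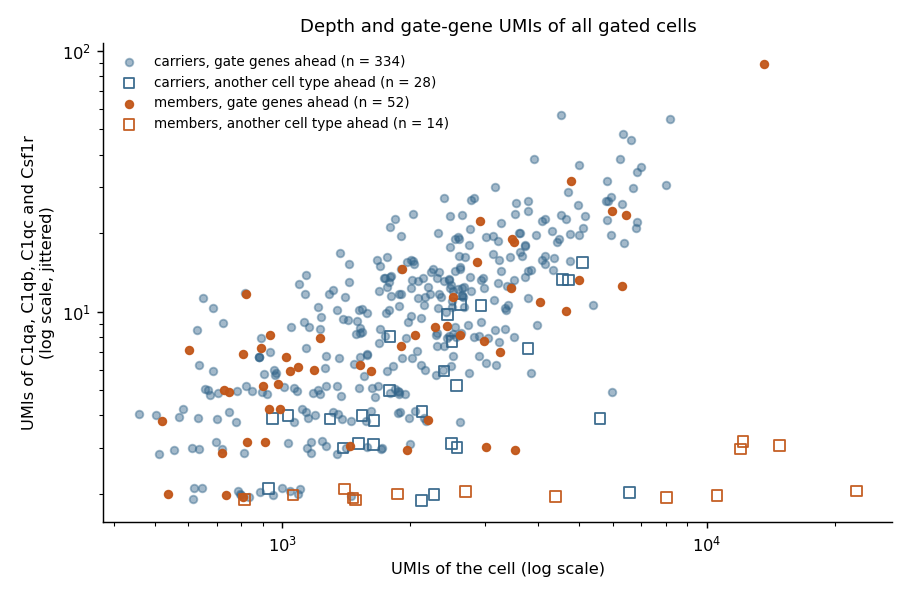
Each point is 1 of the 428 gated cells, with its total UMIs on the x axis and its UMIs of the 4 gate genes on the y axis, both on log scales. Open squares are barcodes with more UMIs of another cell type's markers than of the gate genes: 14 of 66 marker-lacking cells (members) and 28 of 362 marker-carrying cells (carriers), including 5 of the 6 deepest members.

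The share of gated cells that lacked the 3 genes varied with depth. It was 26.8% below 1000 UMIs (19 of 71, exact 95% interval 16.9 to 38.6%), 11.6% between 1000 and 2000 (16 of 138), 10.1% between 2000 and 4000 (16 of 158) and 24.6% at 4000 UMIs or more (15 of 61, 14.5 to 37.3%). With barcodes led by another cell type's markers left out, the share at the deepest end was 16.3% (8 of 49). For this reason the tests and list shares against marker-carrying cells below use pairs from the same collection whose UMIs differed by at most 0.25 on the log2 scale. This left 60 pairs with medians of 1572 and 1575.5 UMIs and 835.5 and 931 genes per cell, marker-lacking cells first in both cases. The 6 deepest barcodes found no partner. Counts over 66 and 362 cells are not matched for depth.

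A gate on part of a cell's UMIs gave a measure of how far absence depends on depth. Each cell's UMIs were divided at random, the first portion was used for the gate and the second was counted. This gave 92 cells without the 3 genes in the first portion, a larger set than the 66, and 89 pairs. Mrc1 in the second portion stood at 455 and 380 UMIs per 1000000 UMIs (CPM) in the cells without the 3 genes of replicates 1 and 2, against 1222 and 912 CPM in those with them. Pf4 stood at 262 and 402 against 826 and 1112 CPM. F13a1 stood at 35.0 and 44.7 against 361 and 245 CPM, with 4 UMIs in all in the cells without. A cell with one of these genes in its second portion is marker-carrying when all its UMIs are read, so the values describe a gate at lower depth and not the 66 cells, which have none by the rule. They carry no test.

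**Figure D2:**
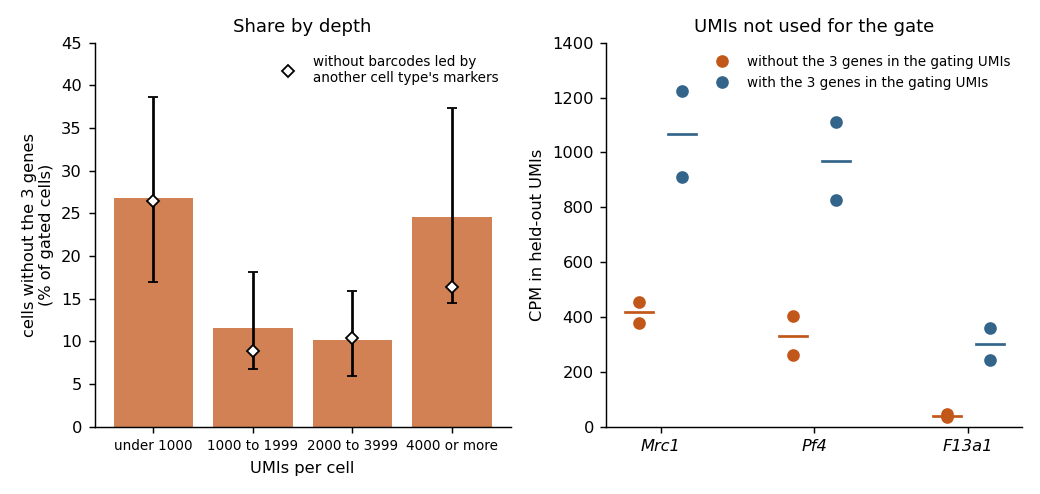
Left, the percentage of gated cells without Mrc1, F13a1 and Pf4 in 4 ranges of UMIs per cell, with exact 95% binomial intervals; diamonds leave out barcodes led by another cell type's markers, and the share is 26.8% at the shallow end and 10.1% between 2000 and 4000 UMIs. Right, CPM of the 3 genes in UMIs that were not used for the gate, 1 point per biological replicate with a line at the mean; all points of cells without the 3 genes in the gating UMIs lie below those of cells with them, and only F13a1 comes close to 0.

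The gate genes chose the cells, so their levels are a description. Over all 66 cells C1qa stood at 815 CPM, C1qb at 938, C1qc at 579 and Csf1r at 246, compared with 1324, 1814, 1217.5 and 352 CPM in the 362 marker-carrying cells. Summed over the 4 genes this was 2578 against 4707 CPM. With only barcodes led by the gate genes, the sums were 4305 and 4932 CPM. Cx3cr1 had 4 UMIs in 3 of the 66 cells and 48 UMIs in 34 of the 362, beside 0.316% of fibroblast-gated cells with a UMI, too few to describe either class. Tyrobp, the adaptor of myeloid receptors, had 98 UMIs in 36 matched marker-lacking cells and 95 in 36 marker-carrying cells. Cd68, a lysosomal glycoprotein, had 45 and 56 UMIs, and Aif1, an actin-bundling protein of macrophages, had 39 and 36. The lipid carrier Apoe stood at 7182 ± 999 CPM in marker-lacking and 6481 ± 284 CPM in marker-carrying cells (mean ± SD, n = 2 biological replicates). Ly6c2, a marker of blood monocytes, had no UMI in any of the 66 cells, which allows a share of up to 4.55% of cells with a UMI.

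At matched depth no gene passed the test between marker-lacking and marker-carrying macrophages. UMIs were summed per biological replicate and class, and 1576 genes were tested with edgeR's quasi-likelihood test with Benjamini-Hochberg adjustment. It called 0 genes higher (0% of those tested) and 0 lower (0%) at an adjusted p under 0.05. At an unadjusted p under 0.05 it had 41 genes higher (2.6%) and 46 lower (2.92%). DESeq2 on the same sums called 0 higher and 1 lower, the chemokine gene Ccl7. Without the barcodes led by other cell types, edgeR called 4 of 1248 genes higher (0.321%) and 1 lower (0.0801%). Those were Lyz1, Lyz2, Sec61b and the predicted gene Gm23935, with Ccl7 lower. Gm23935 had 117 of its 141 UMIs in 1 cell. Collections changed the counts too: without 1A there were 2 higher and 2 lower, without 2A 4 and 1, without 2B 0 and 1, without 2C 2 and 1, and without 1B none. Simulated counts of the same depth gave all genes the same dispersion, the spread beyond counting error. In them the test recovered 80.9% of genes changed 4-fold and 11.6% of genes changed 2-fold. Most differences of 2-fold were thus missed even there. Genes whose UMIs lie in few cells were not simulated, so the rates do not carry over to the real genes. In the real sums Ccl7 was not called at a log2 difference of −3.27.

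Lysozyme transcripts stood higher in the marker-lacking cells but lay in few of them. Lyz2, the lysozyme of myeloid cells, stood in marker-lacking cells at 4676 CPM in 1A, 2455 in 1B, 1162 in 2A, 4020 in 2B and 321 in 2C. In marker-carrying cells it stood at 1535, 835, 727, 704 and 1615 CPM in the same order. It was higher in 4 of 5 collections, with 2C on the other side, and the log2 difference was 1.37 ± 0.21 (SE; adjusted p = 0.148 by edgeR). Without collection 2B the Lyz2 difference was 0.54, and with gate and sums on separate UMIs it was 0.55 (adjusted p = 0.881 and 0.998 by edgeR). Lyz2 passed the test without 2A (1.38, adjusted p = 0.0323 by edgeR) and without 2C (1.79, adjusted p = 0.011), but not without 1A or 1B. Fewer marker-lacking cells had it: 32 of 60 against 43 of 60. The 5 highest cells held 287 of its 377 UMIs (76.1%), and without them Lyz2 stood at 808 CPM. Without the 5 highest marker-carrying cells it stood at 902 CPM there. The near-identical copy Lyz1 had 112 UMIs in 5 marker-lacking cells and 4 UMIs in 3 marker-carrying cells (log2 difference 4.53 ± 0.74, adjusted p = 0.148 by edgeR). Lyz1 passed the test with gate and sums on separate UMIs (4.55, adjusted p = 1.11e-05 by edgeR). It also passed without 1A, 2A or 2C in turn, but not without 2B (4.46, adjusted p = 0.0834 by edgeR). How reads were divided between the copies was not given in the sources used here, so the values of Lyz1 and Lyz2 are uncertain as separate genes.

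Most Lyz1 and Lyz2 UMIs lay in cells that also had Il22ra2, the secreted binding protein that neutralises the cytokine IL-22. Over all 66 marker-lacking cells, 7 had Lyz1 and 8 had Il22ra2, and 6 had both. Of the 362 marker-carrying cells, 22 had Lyz1 and 1 had Il22ra2, and none had both, which allows a share of up to 0.829%. The 6 cells came from all 5 collections, 2 from 1A and 1 from each of the others, and had 1022, 2876, 5981, 13594, 6305 and 10550 UMIs. A cell of 1A with 910 UMIs had 58 Lyz2 UMIs and no Il22ra2, while the cell of 6305 UMIs had 19 Lyz2, 2 Lyz1 and 1 Il22ra2. The 6 held 136 of the 139 Il22ra2 UMIs, 229 of the 232 Lyz1 UMIs and 608 of the 827 Lyz2 UMIs of the 66 cells. Lyz2 stood at 15076 CPM in them, 1222 CPM in the other 60 marker-lacking cells and 1561 CPM in all marker-carrying cells. Their gate-gene UMIs were 7, 16, 25, 91, 13 and 2, so 5 of the 6 were led by the gate genes. Of the cells, 2 had Ccr7 with a further dendritic gene, the one of 6305 UMIs in 2B and the one of 10550 in 2C. Among 35 cells gated as dendritic, 4 had both Lyz1 and Il22ra2, as did 1 of the 5542 cells in no gate. The pair of genes was singled out after its values were seen and was not tested. In matched cells Il22ra2 had 36 UMIs in 6 marker-lacking cells and 1 UMI in 1 marker-carrying cell, a ratio of 35.9 with an exact interval of 6.04 to 1455 that covers counting error only (adjusted p = 0.755 by edgeR). With gate and sums on separate UMIs Il22ra2 passed the test (log2 difference 5.98, adjusted p = 0.00185 by edgeR). It did not pass with any single collection left out.

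Chemokines that draw monocytes stood lower in marker-lacking cells, without passing the test. Ccl7 stood at 64.1 CPM in 1A, 0 in 1B, 291 in 2A, 109 in 2B and 184 in 2C, against 736, 557, 2181, 458 and 1762 CPM in marker-carrying cells. It was lower in 5 of 5 collections and the ranges did not overlap (log2 difference −3.27 ± 0.47, adjusted p = 0.148 by edgeR). The difference lay in both the number of cells and their content: 8 of 60 marker-lacking cells had 13 UMIs and 25 of 60 marker-carrying cells had 124, with 28 in the highest. Over all gated cells 16.7% and 46.1% had a Ccl7 UMI, beside 9.14% of 3796 fibroblast-gated cells with a median of 1375 UMIs. Ccl2, the main attractant of monocytes through Ccr2, had 16 UMIs in marker-lacking and 78 in marker-carrying cells (log2 difference −2.10 ± 0.44, adjusted p = 0.378 by edgeR). Of the 78 UMIs, 33 came from barcodes led by another cell type and 63 from the 5 highest cells, with 33 in the highest. Without the 5 highest cells of each class Ccl2 stood at 41.5 CPM in marker-lacking and 127 CPM in marker-carrying cells. The neutrophil chemokine Cxcl1 stood at 624 ± 282 and 1240 ± 104 CPM (adjusted p = 0.755). Ccl7, Ccl2 and Cxcl1 passed the test when the gate and the sums used separate UMIs of each cell, with log2 differences of −1.54, −1.98 and −1.63, of which that of Ccl7 was smaller than in the matched cells. The same setting called Igha, Il22ra2 and Lyz1 higher. Without barcodes led by other cell types the difference of Ccl2 was −1.35 (adjusted p = 0.661 by edgeR).

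The chemokine list as a whole did not move one way. Ccl3, a chemokine that draws leukocytes, stood at 1826, 1721, 1743, 1738 and 1882 CPM in marker-lacking cells of 1A, 1B, 2A, 2B and 2C and at 1759, 1316, 1090, 986 and 783 CPM in marker-carrying cells. The former were close together and higher in 5 of 5 collections (log2 difference 0.60 ± 0.28, adjusted p = 0.755 by edgeR). With up to 4 marker-carrying cells per marker-lacking cell the Ccl3 difference was 0.05 (adjusted p = 0.959 by edgeR). Without the matching of UMIs the direction of Ccl3 turned to −0.80. Of the 39 listed cytokine and chemokine genes 20 were tested, none was called, 5 lay above and 15 below marker-carrying cells, and the median log2 difference was −0.29, beside 0.03 over all tested genes. The list took 1.39 ± 0.315% of UMIs in marker-lacking and 1.75 ± 0.0575% in marker-carrying cells (SD, n = 2), and 1.65 and 1.75% without barcodes led by other cell types. The inflammatory cytokine Il1b stood at 1670 and 1429 CPM and Tnf at 307 and 408 CPM.

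**Figure D3:**
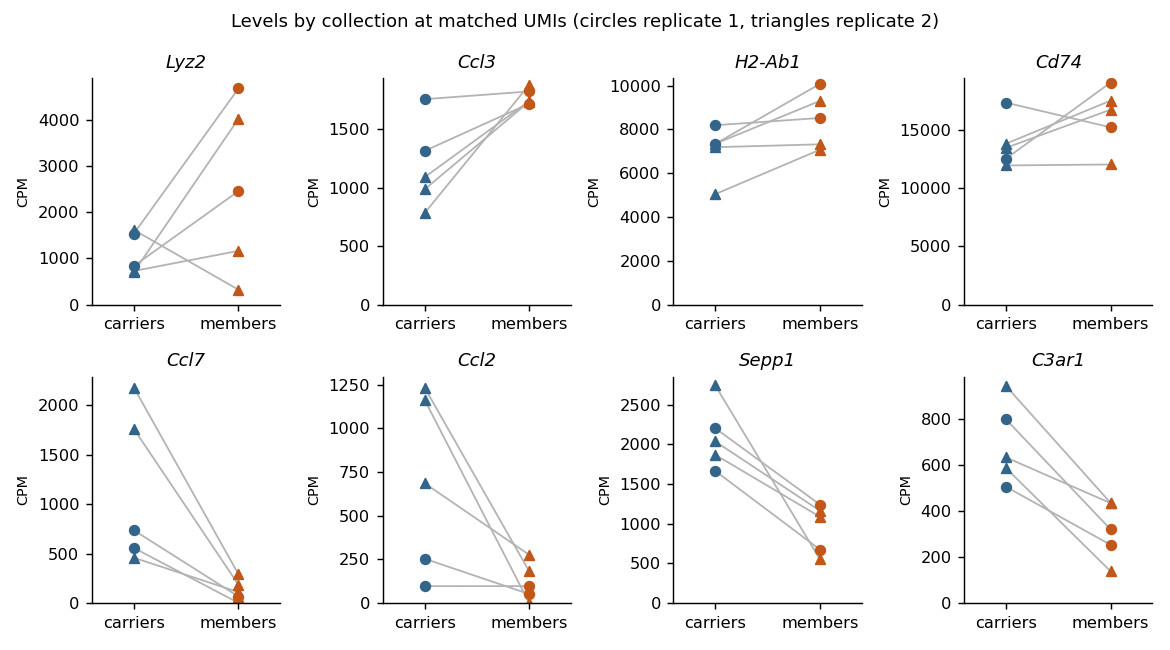
CPM of 8 genes in matched marker-carrying (carriers) and marker-lacking (members) cells, 1 line per collection, circles for biological replicate 1 and triangles for replicate 2. Ccl7 and Sepp1 are lower and Ccl3 and H2-Ab1 higher in members in 5 of 5 collections, while Lyz2 is higher in 4; none passed the test.

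No other gene of perivascular and longer-lived macrophages passed the test at matched UMIs, though most of those tested stood lower in marker-lacking cells. Sepp1, which encodes the selenium transport protein, stood at 673, 1240, 1162, 1087 and 551 CPM in 1A, 1B, 2A, 2B and 2C, against 1663, 2201, 2035, 1867 and 2741 CPM in marker-carrying cells. Every collection lay lower and the ranges did not overlap, with means of 954 ± 50.5 and 2076 ± 159 CPM (SD, n = 2; log2 difference −1.08 ± 0.21, adjusted p = 0.283 by edgeR). Sepp1 passed the test when sums were made per collection, which counts runs of 1 biological replicate as separate samples. With gate and sums on separate UMIs the Sepp1 difference was −0.36 (adjusted p = 0.998 by edgeR). Maf, a transcription factor of this macrophage type, had 14 and 42 UMIs (log2 difference −1.54 ± 0.47, adjusted p = 0.755) and Lyve1, a hyaluronan receptor, 8 and 28 (−1.85 ± 0.81, adjusted p = 0.755). Too scarce for the test were Cbr2, in 2 matched marker-lacking and 12 marker-carrying cells, Cd163, the haemoglobin scavenger receptor, in 1 and 5, and Folr2, a folate receptor, in 1 and 3. The 26 list genes in the tables took 0.375 ± 0.00483% of UMIs in marker-lacking and 0.618 ± 0.0294% in marker-carrying cells (SD, n = 2), and 0.400 and 0.634% without barcodes led by other cell types. In single collections the shares ran from 0.307 to 0.435% and from 0.476 to 0.808%. Of 7 list genes tested none was called and 6 lay below marker-carrying cells, with a median log2 difference of −0.98. The list was drawn up for the same macrophage type as the 3 genes that defined the classes, so its count is no independent evidence.

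Among the macrophage core genes 24 were tested and none was called, with 8 above and 16 below marker-carrying cells and a median log2 difference of −0.31. Beside Lyz2, which is on the list, those with the smallest p-values stood lower. C3ar1, the receptor for complement C3a, stood at 308 ± 35.2 against 661 ± 36.4 CPM and was lower in 5 of 5 collections (log2 difference −1.07 ± 0.31, adjusted p = 0.755 by edgeR), with −0.32 for C3ar1 on separate UMIs. Lgmn, a lysosomal protease, and Ms4a7, a membrane protein of tissue macrophages, had 125 and 71 UMIs against 198 and 122. From the lists of transcription factors and of mucosal macrophage genes, Zeb2 had 160 against 271 UMIs and the adhesion molecule Vcam1 34 against 65, both lower in 5 of 5 collections. Directions turned in 2 alternatives: Ms4a7 and Zeb2 were higher where barcodes with 2 markers of another cell type were left out (389 genes tested), and Vcam1 where gate and sums used separate UMIs. The core list took 2.31 ± 0.442% and 2.48 ± 0.0776% of UMIs (SD, n = 2), which differed by less than the spread between replicates. Without barcodes led by other cell types the order turned, to 2.75 ± 0.187% and 2.63 ± 0.364%. The list of mucosal macrophage genes took 0.865 ± 0.0554% and 0.880 ± 0.222%, or 0.983 and 0.976% without those barcodes, and 8 of its 15 tested genes lay above and 7 below.

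MHC class II transcripts took 3.79 ± 0.463% of the UMIs of marker-lacking cells and 3.23 ± 0.322% in marker-carrying cells (SD, n = 2), beside 4.54 ± 0.133% in dendritic-gated cells. Without barcodes led by other cell types the shares were 4.48 ± 0.120% and 3.58 ± 0.0185%, and without the matching of UMIs both were 3.14%. By collection, the share was higher in marker-lacking cells in 1B, 2A and 2B. It was lower in 1A (3.70 against 3.98%) and nearly equal in 2C (2.956 against 2.951%). All 8 tested genes of the list lay above marker-carrying cells, none passed the test, and the median log2 difference was 0.28. Of all 1576 tested genes 824 lay above, with a median of 0.03. H2-Ab1, the beta chain of I-A, stood at 8519, 10073, 9298, 7316 and 7069 CPM in 1A, 1B, 2A, 2B and 2C, against 8188, 7338, 7341, 7185 and 5041 CPM. It was higher in 5 of 5 collections by a log2 difference of 0.29 ± 0.15, while the ranges overlapped (adjusted p = 0.755 by edgeR). Cd74, the invariant chain that guides class II to the endosome, differed by 0.27 ± 0.15 and was higher in 4 of 5. H2-Aa and H2-Eb1 differed by 0.26 ± 0.16 and 0.18 ± 0.16 and were higher in 3 of 5. H2-DMa and H2-DMb1, which load peptide, had 43 and 30 UMIs against 26 and 18. Without the matching of UMIs, Cd74, H2-Aa, H2-Eb1, H2-DMa and H2-DMb1 lay below marker-carrying cells.

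The spread between cells was wider than these sums show. A marker-lacking cell gave a median of 3.95% of its UMIs to MHC class II, with quartiles of 1.74 and 5.38%, and a marker-carrying cell 1.81%, with quartiles of 0.375 and 3.97%. In replicate 1 the medians were 3.86 and 2.33% and in replicate 2 they were 4.09 and 1.51%. Cells with under 1% were 12 of 60 among marker-lacking and 25 of 60 among marker-carrying cells, and their share was lower in the former in 5 of 5 collections. Without barcodes led by other cell types they were 4 of 51 (7.84%) and 23 of 56 (41.1%), so most marker-lacking cells low in MHC class II were such barcodes. The limit of 1% was set after the values were seen, the cells of a collection are not independent, and no test was made.

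**Figure D4:**
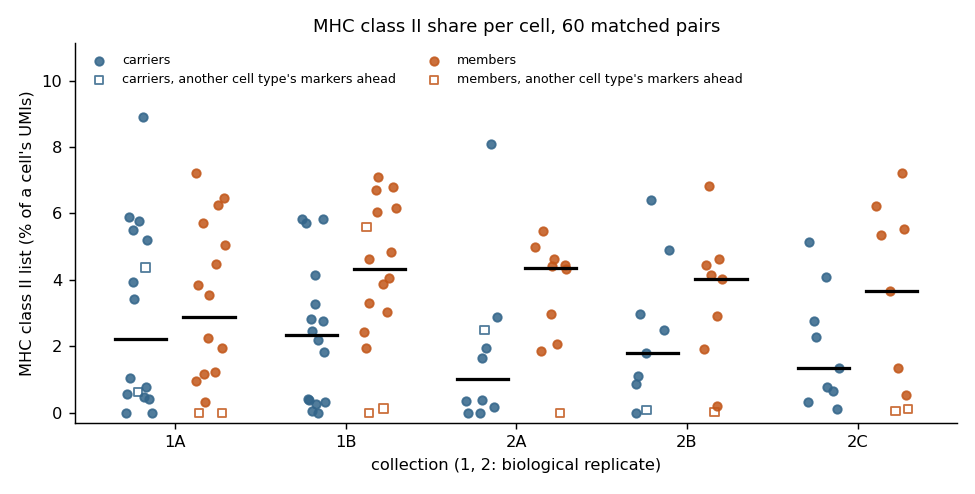
The percentage of each matched cell's UMIs in the 12 MHC class II genes, by collection, with black lines at the medians and open squares for barcodes led by another cell type's markers. Medians of marker-lacking cells (members) lie above those of marker-carrying cells (carriers) in each collection, and cells under 1% number 12 of 60 and 25 of 60.

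The genes of the dendritic gate stood in a minority of the marker-lacking cells. At least 1 of Flt3, Zbtb46, Ccr7, Xcr1, Clec9a and Cd209a was present in 8 of 66, and at least 2 in 2 of 66, against 31 and 2 of 362 marker-carrying cells. In matched cells at least 1 was present in 6 of 60 and 4 of 60. Ccr7, the receptor that leads migrating cells to lymph nodes, had 18 UMIs in 5 matched marker-lacking cells and 3 UMIs in 2 marker-carrying cells, a ratio of 5.98 (exact interval 1.74 to 31.7; adjusted p = 0.688 by edgeR). Of the 18 Ccr7 UMIs 10 lay in 1 cell of 2B, and the log2 difference of 2.54 was 1.20 without that collection and 0.86 with up to 4 marker-carrying cells per marker-lacking cell. Its direction turned, to −2.38, where barcodes with 2 markers of another cell type were left out. Ccl22, made by maturing dendritic cells, had 19 and 4 UMIs in 4 cells each. Of the 5 dendritic list genes tested none was called, 3 lay above and 2 below. Ccr2, the receptor for Ccl2 on monocytes, had 11 UMIs in 6 matched marker-lacking cells and 3 in 1 marker-carrying cell and was too scarce for the test. Over all gated cells Ccr2 was in 10.6% and 3.87%, beside 0.448% of fibroblast-gated cells. The monocyte list took 0.202 ± 0.0722% and 0.191 ± 0.0378% of UMIs (SD, n = 2), and its 4 tested genes were 2 above and 2 below.

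The remaining lists held no call, and their medians are given beside the 0.03 of all genes. Immediate-early and heat-shock genes had 18 above and 9 below of 27 tested, with a median log2 difference of 0.25. Socs3, a brake on cytokine signalling, stood at 338 ± 58.8 against 112 ± 22.1 CPM and was higher in 5 of 5 collections (log2 difference 1.64 ± 0.56, adjusted p = 0.755 by edgeR). Without barcodes led by other cell types the Socs3 difference was 0.52, and on separate UMIs 0.36. Hspb1, a small heat-shock protein, had 40 against 14 UMIs. Hspa1a was on the other side with 101 against 159. Interferon response genes had 5 above and 1 below, with a median of 0.55. The 1 below was Ifi27l2a, with 16 against 40 UMIs. Genes of the lysosome and of lipid handling were divided 8 to 8, with the lipid droplet protein Plin2 (34 against 71 UMIs) and progranulin, Grn (23 against 43), lower in 5 of 5 collections. Transcription factors were divided 12 to 13, and Bhlhe40 had 73 against 39 UMIs. MHC class I genes were 5 above and 3 below, with H2-Q7 at 68 against 34 UMIs. Proliferation genes were 3 above and 2 below, with the histone H2afz at 121 against 75 UMIs. Integrin and migration genes were 4 above and 5 below, with Cxcr4 at 29 against 52 UMIs. Iron genes were 4 above and 1 below. Scavenger receptor genes had 3 tested, all below.

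A few genes outside the lists, named after their values were seen, differed in each collection. Sec61b, a subunit of the channel through which proteins enter the endoplasmic reticulum, stood at 512, 506, 726, 833 and 367 CPM in marker-lacking cells of 1A, 1B, 2A, 2B and 2C and at 128, 177, 145, 247 and 0 CPM in marker-carrying cells. The ranges did not overlap (log2 difference 1.97 ± 0.36, adjusted p = 0.231 by edgeR), and 22 against 15 cells had a UMI. Here and above, ranges without overlap and directions shared by 5 of 5 collections are descriptions. Their share among the 1576 tested genes is not given. Prdx6, an antioxidant enzyme, had 45 UMIs in 23 cells against 12 in 10 and was likewise higher in 5 of 5 collections (1.90 ± 0.41, adjusted p = 0.393). Cyr61, a matricellular protein of stromal cells, had 58 against 2 UMIs, and 48 of the 58 were in barcodes led by another cell type.

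Against dendritic-gated cells many genes of the marker-lacking cells passed the test. The dendritic gate took cells with at least 2 of Flt3, Zbtb46, Ccr7, Xcr1, Clec9a and Cd209a and fewer than 2 of the C1q gate genes, which gave 24 cells in replicate 1 and 11 in replicate 2 with a median of 2904 UMIs, not matched for depth. In the same edgeR fit 87 of 1575 genes were higher in marker-lacking cells (5.52%) and 48 lower (3.05%). DESeq2 called 50 and 16. Without the barcodes led by other cell types 155 and 119 of 1247 genes were called, among them 82 of the 87 and all 48. Without collection 2B the lower genes fell to 23, and with only these 2 classes in the fit 1 gene was higher and none lower.

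Of the 24 macrophage core genes tested 12 rose and none fell, beside 5.52% of all genes higher. The gates asked for at least 2 C1q gate genes in marker-lacking cells and fewer than 2 in dendritic-gated cells. This count and that of the mucosal macrophage list below are therefore no independent evidence that the cells are macrophages. Apoe stood at 7889 and 6475 CPM in marker-lacking cells of the 2 replicates and at 201 and 50.0 CPM in dendritic-gated cells (log2 difference 5.69 ± 0.31, adjusted p = 0.000296 by edgeR). Sepp1, from the resident list, stood at 954 ± 50.5 against 56.3 ± 8.94 CPM (4.03 ± 0.34, adjusted p = 0.00227). Ctsb, a lysosomal protease, stood at 1823 ± 541 against 332 ± 151 CPM. H2-M2, an MHC class I-like gene, had 108 UMIs against 2 (ratio 48.3, exact interval 13.1 to 404, counting error only). The complement receptor C5ar1, the integrin Itgam, the adaptor Lat2 and the small GTPase Rhob had 20, 16, 19 and 28 UMIs against none. These were at least 5.96-fold, 4.77-fold, 5.67-fold and 8.35-fold higher, taking 3 counts over the dendritic group as its floor.

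Secreted factors, proteases and iron genes were among the others. In the cytokine list 8 of 20 tested genes rose and none fell: Ccl3 stood at 1778 ± 15.5 against 107 ± 79.8 CPM (3.98 ± 0.39, adjusted p = 0.005 by edgeR), and the stress cytokine Gdf15 at 985 ± 174 against 87.7 ± 53.3 CPM (3.30 ± 0.42, adjusted p = 0.0132). Pdgfa, a growth factor for stromal cells, had 40 UMIs against 1 and the matrix protease Mmp14 39 against 1 (ratios 35.8, interval 6.06 to 1448, and 34.9, interval 5.90 to 1413). In the mucosal list 8 of 15 rose, Hes1 among them, a target of Notch, at 987 ± 36.7 against 144 ± 97.6 CPM. In the iron list 4 of 5 rose: the ferritin chain Fth1 stood at 28048 and 13125 CPM in marker-lacking cells against 8233 and 6776 CPM. The haem-degrading enzyme Hmox1 had 73 UMIs against 1, with 64 of the 73 in 1 cell. MHC class II (8 genes) and class I (8 genes) held no call in either direction, with median log2 differences of −0.28 and 0.01, beside 0.04 over all tested genes.

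The genes that fell were led by Cst3, the protease inhibitor cystatin C, at 735 ± 99.6 CPM in marker-lacking and 5313 ± 761 CPM in dendritic-gated cells (log2 difference −2.80 ± 0.21, adjusted p = 0.00162 by edgeR). Serpinb6b had 2 UMIs against 68 and P2ry10, a lysophospholipid receptor gene, 2 against 29, giving dendritic-gated cells levels 38.0 times (interval 10.1 to 320) and 16.2 times (4.10 to 140) as high. Serpinb9, an inhibitor of granzyme B, had 6 UMIs against 86 (−3.79 ± 0.51, adjusted p = 0.0156). Plac8, Traf1, a signalling adaptor of TNF receptors, Odc1, the first enzyme of polyamine synthesis, S100a11, Dgat1 and Mdh2 also fell and were lower in each of the 5 collections. In each of these genes marker-carrying macrophages stood on the same side of dendritic-gated cells as marker-lacking ones, with Cst3 at 598 ± 32.8 CPM.

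**Figure D5:**
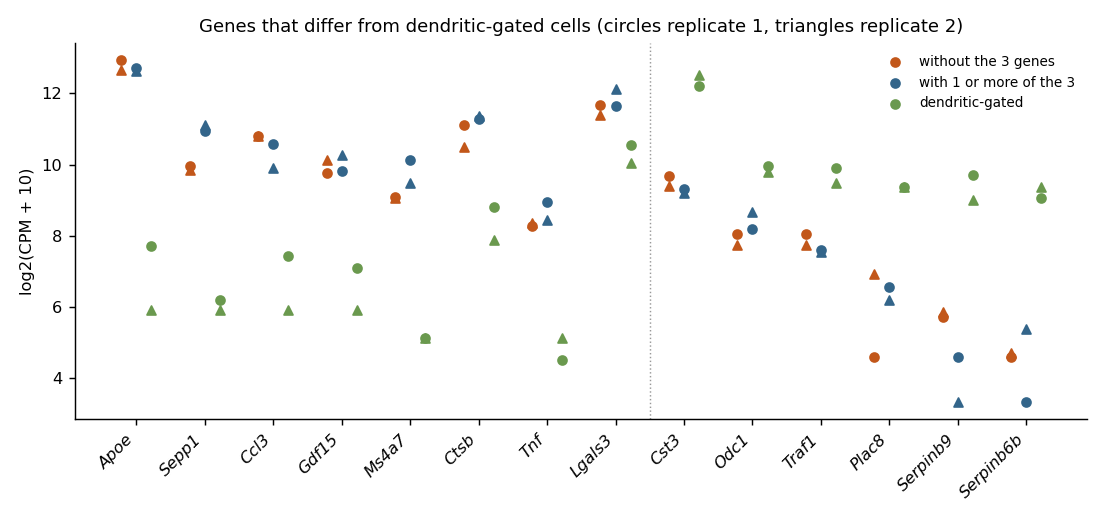
Levels of 14 genes called between marker-lacking macrophages and dendritic-gated cells, as log2(CPM + 10), in the 2 macrophage classes and the dendritic-gated cells, circles for biological replicate 1 and triangles for replicate 2. Left of the dotted line are genes higher in marker-lacking macrophages, such as Apoe at 7182 against 125 CPM, and right of it lower ones, such as Cst3 at 735 against 5313 CPM; both macrophage classes lie on the same side of the dendritic-gated cells in all 14.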

How the data were processed

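Each of the 5 collections was deposited as a matrix of raw UMI counts, genes by barcodes. The submitters' processing notes name STAR 2.6 and the mm10 build. Which program and annotation gave the counts, and how barcodes were selected, is not given in the sources used here. Of 7935 barcodes, 1263 with fewer than 300 genes and 667 with over 10% mitochondrial UMIs were left out; doublets were scored with Scrublet (scanpy 1.11.5) and none was removed. Overlapping and near-identical genes could not be told apart.

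The members and gene lists were chosen with earlier results of these data known. Macrophage classes were matched 1 to 1 on log2 UMIs within a collection (limit 0.25). Counts were summed per class and biological replicate, giving 6 sums for marker-lacking, marker-carrying and dendritic-gated cells, and fitted with edgeR 4.0.16 (quasi-likelihood, TMM, filterByExpr, replicate as block, since the classes of a replicate were captured in the same collections), two-sided, with Benjamini-Hochberg adjustment over all tested genes except those of the gates. DESeq2 1.42.0 was an alternative. The fit was tested on simulated data. CPM is a gene's UMIs per 1000000 UMIs of the summed cells; SEs were derived from the log2 difference and its F statistic.

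Genes were named by a rule: the 10 largest called differences per direction with at least 100 CPM in the higher class and the same direction in every collection with a UMI, and up to 4 genes per list and direction with the smallest p. Some items the rule names are not reported here. Other names are stated to have been chosen after their values were seen. Intervals cover counting error only. List shares leave out the gate genes and the 3 absent genes. The alternatives were other filters, gates, matchings, tools and each collection left out; those that leave out barcodes led by another cell type or match up to 4 carriers were chosen after seeing the data.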

Additional observations from a re-analysis of the deposited data

Results flagged for a closer look

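In 45 groups of 5 collections, the highest or lowest collection was compared with the nearest of the others, and 4 lay far enough away to pass Dixon's 95% critical value of 0.71, where chance passes about 5% of groups. The share of gated macrophages without the 3 genes was 13.7% in collection 2C and 15.4 to 16.1% in the others. Ccl22 stood at 551 CPM in marker-lacking cells of 2C and at 0 to 127 CPM in the others, and 12 of its 19 UMIs lay in 1 cell. Hbegf stood at 797 CPM in marker-lacking cells of 2B and at 72.6 to 278 CPM in the others, with 27 of its 46 UMIs in barcodes led by another cell type's markers. Hmox1 stood at 2080 CPM in marker-lacking cells of 1A and at 25.3 to 181 CPM in the others, with 64 of its 73 UMIs in 1 cell.

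Some barcodes that were left out also passed the C1q gate without the 3 genes. Of 667 barcodes with over 10% mitochondrial UMIs, 5 passed the C1q gate without the 3 genes and 1 passed with them. Of 1263 barcodes with fewer than 300 genes, 22 passed without the 3 genes and 5 passed with them. Which cell type led these barcodes is not given. Among retained cells the share without the 3 genes varied with depth, so these counts do not identify a kind of cell.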

How the results depend on the processing

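The share of 15.4% was 16.36% without the mitochondrial limit, 17.01% from 200 genes, 12.05% with 3 gate genes, 12.43% without barcodes holding 2 markers of another cell type (mixed barcodes), 15.04% without the top doublet scores, 13.17% from 1000 UMIs, 13.47% without barcodes led by another cell type, and 15.26 to 15.77% without each collection in turn. Against marker-carrying cells, genes called higher and lower (0 and 0) were 117 and 147 without UMI matching, 1 and 2 with sums per collection, 3 and 3 with gate and sums on separate UMIs, 7 and 1 without a filter on low counts, 2 and 1 with 2 classes alone in the fit, 4 and 1 without barcodes led by another cell type, 6 and 5 with up to 4 carriers per cell, and 6 and 4 with both of these. With 3 gate genes or without mixed barcodes 1 was higher, and with DESeq2 1 was lower. Sums per collection count runs of 1 biological replicate as separate samples. Without each collection in turn 0 to 4 were higher and 0 to 2 lower. Without the replicate block, 1 gene was higher against marker-carrying cells and none lower, and 122 were higher and 50 lower against dendritic-gated cells.

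Against dendritic-gated cells (87 and 48) the counts were 194 and 122 without UMI matching, 132 and 94 with 3 gate genes, 155 and 119 without barcodes led by another cell type, 150 and 96 with up to 4 carriers, 183 and 118 with both, 50 and 16 with DESeq2 and 1 and 0 with 2 classes alone. With separate UMIs 138 and without a filter 145 were higher. Without each collection in turn 66 to 108 were higher and 23 to 69 lower.

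The share of UMIs in MHC class II genes of marker-lacking cells was 3.142% without UMI matching (marker-carrying 3.143%), 4.48% without barcodes led by another cell type and 3.583 to 3.962% without each collection. For the resident list it was 0.307% without matching, 0.5557% without mixed barcodes, 0.3483% from 1000 UMIs, 0.4005% without barcodes led by another cell type and 0.3398 to 0.4037% without each collection. The core list had 3.135% without mixed barcodes (marker-carrying 2.733%, so the order turned) and 2.086 to 2.6% without each collection. The mucosal list had 0.7296% without matching, 1.011% without mixed barcodes (marker-carrying 0.904%, turned), 0.9834% without barcodes led by another cell type and 0.8347 to 0.9058% without each collection. Cytokines had 1.028% without matching and 1.338 to 1.457% without each collection.

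Log2 differences from marker-carrying cells that changed sign were, without matching, Ccl3 (−0.80), H2-Aa (−0.13), H2-Eb1 (−0.19), Cd74 (−0.12), H2-DMa (−0.0682) and H2-DMb1 (−0.46). Without mixed barcodes they were Ms4a7 (0.44), Zeb2 (0.10), Ccr7 (−2.38) and Cd83 (1.07). On separate UMIs they were Vcam1 (0.0757), H2-DMa (−0.36), H2-DMb1 (−0.0128) and Cd83 (0.0512). H2-Eb1 was −0.0102 without 2B, the lowest of a range up to 0.241 without each collection, H2-DMb1 −0.0324 with up to 4 carriers and Hmox1 −1.72 without the top doublet scores. Against dendritic-gated cells Lyz2 was −1.25 on separate UMIs. The cause was not tested. Differences of 2-fold were seldom recovered even in simulated counts, which limits what the comparison with marker-carrying cells can show.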
